A study of Saccharomyces cerevisiae with 18 samples.

Results

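Transcript levels of 10 genes of glycolysis and ethanol fermentation were followed in budding yeast (Saccharomyces cerevisiae) with genes for nonsense-mediated mRNA decay (NMD) deleted. These genes of metabolism were chosen by their identity, though with earlier results of these data known. They are 10 of the 12289 features counted, 6008 of them coding. In pathway order they are PGI1 (YBR196C), PFK1 (YGR240C), PFK2 (YMR205C), FBA1 (YKL060C), TPI1 (YDR050C), PGK1 (YCR012W), GPM1 (YKL152C), ENO2 (YHR174W), CDC19 (YAL038W) and ADH1 (YOL086C). All 10 passed the filter on low counts in every comparison.

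RNA was sequenced from 18 libraries in 6 groups of 3. A first series held a upf1 deletion and its wild type. A second held an nmd4 deletion, an ebs1 deletion, libraries labelled as an nmd4 ebs1 double deletion, and a wild type of its own. By the labels, all strains are S288 derivatives grown to exponential phase in YPD, a rich glucose medium, at 30 °C to an optical density of 0.6. The upf1, nmd4 and ebs1 mutants and both wild types are BY4741 of mating type a, whereas the labelled double mutant is BY4742 of mating type alpha, so that background and genotype cannot be told apart there. UPF1 (NAM7 in the annotation) encodes the helicase at the core of NMD, and NMD4 and EBS1 encode proteins that associate with it. The labels do not say that the 3 libraries of a group came from separate colonies, so the p-values speak of the spread among these libraries, which may be technical.

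Glycolysis splits glucose into pyruvate, and in yeast growing on glucose most pyruvate is then decarboxylated to acetaldehyde and reduced to ethanol, which returns the NAD+ that glycolysis uses. The enzymes are among the most abundant proteins of the cell. Their genes are driven by strong promoters at which the factors Rap1, Gcr1, Gcr2 and Tye7 act, and their mRNAs, which have uninterrupted reading frames, are not textbook NMD substrates.

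The libraries held 14243384 to 31452109 counts. NAM7 had 198, 256 and 227 counts in the upf1 deletion, against 5956, 5100 and 5951 in its wild type. NMD4 had 63, 102 and 50 counts in the nmd4 mutant, but 1364, 1753 and 2473 in the libraries labelled as a double deletion, against 562, 375 and 598 in wild type, so that the double label is not borne out for NMD4. EBS1 had 87, 131 and 142 counts in those libraries, against 2440, 2166 and 3466 in wild type. Mating-type genes followed the labels in every group. By the labels, same-numbered libraries of a series were handled in parallel, and in the second series the 3 libraries of a group carry the same sequencing index.

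Because regulators of these promoters are among the genes measured, stretches upstream of the reading frames that hold clusters of their core motifs are shown here as they stand in the R64 genome (RefSeq). The Gcr1 core, CTTCC on either strand, was found in the 600 bases before the start codon of 10 of the 10 genes, and of 72.9% of 5999 nuclear coding genes. At least 2 matches stood before 9 of the 10 (all but FBA1), against 38.2% of all genes. A Rap1 motif, CACCC followed by any 2 bases and ACA on either strand, was found before PFK2 and GPM1, 2 of the 10, against 2.53% of all genes. Capitals mark the matches, GGAAG being the Gcr1 core read on the other strand, and each sequence runs 5′ to 3′ on the strand of the gene.
PGI1 (chrII:614207-614270, minus strand): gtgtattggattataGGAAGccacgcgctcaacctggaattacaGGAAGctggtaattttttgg
PFK2 (chrXIII:675234-675353, minus strand): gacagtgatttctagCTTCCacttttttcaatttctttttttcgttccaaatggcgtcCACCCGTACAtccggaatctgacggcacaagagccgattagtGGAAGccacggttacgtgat
TPI1 (chrIV:556828-556891, minus strand): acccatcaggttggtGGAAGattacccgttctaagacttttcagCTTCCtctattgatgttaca
PGK1 (chrIII:137275-137334, plus strand): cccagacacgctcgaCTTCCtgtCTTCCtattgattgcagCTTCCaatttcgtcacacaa
GPM1 (chrXI:164723-164795, minus strand): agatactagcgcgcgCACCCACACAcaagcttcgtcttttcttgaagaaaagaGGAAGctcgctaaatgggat
CDC19 (chrI:71459-71544, plus strand): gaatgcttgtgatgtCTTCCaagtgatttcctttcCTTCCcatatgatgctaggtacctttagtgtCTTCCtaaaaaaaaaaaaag
ADH1 (chrXV:160756-160842, minus strand): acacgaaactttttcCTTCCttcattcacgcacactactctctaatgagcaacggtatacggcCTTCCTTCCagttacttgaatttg
These are matches of letters, and no binding was measured. Sites that differ from the strings searched are not marked, so a gene without a match may still have a site. A further stretch before GPM1 with 2 Gcr1 cores reaches into the transcribed feature and is not shown. In ADH1 a pair of the cores overlap by 1 base, and in PGK1 3 of them fall within 60 bases.

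In the upf1 series the 10 mRNAs spanned a range from FBA1 down to PFK1 on a scale of CPM per kilobase of feature, CPM being counts per 1000000 after scaling by the trimmed mean of M-values (TMM). FBA1, which encodes the aldolase that splits fructose 1,6-bisphosphate, averaged 9189 ± 53.7 CPM per kilobase in the upf1 deletion and 12918 ± 404 in wild type (SD, n = 3 each). GPM1, the phosphoglycerate mutase, followed with 6982 ± 200.1 in the upf1 deletion and 9503 ± 336 in wild type. PFK1, one of the subunits of phosphofructokinase, was the lowest at 320.4 ± 11.2 in the upf1 deletion and 407 ± 19.2 in wild type. Between those ends the order in the upf1 deletion was ENO2, CDC19, ADH1, PGK1, TPI1, PGI1 and PFK2, and only the libraries of ENO2 and CDC19 overlapped. In wild type the order was CDC19, ADH1, ENO2, TPI1, PGK1, PGI1 and PFK2, in which CDC19 and ADH1, and ADH1 and ENO2, overlapped, and TPI1 stood above PGK1. Each of the 10 had a higher mean CPM than 98.3% or more of the coding features tested. In the second series, whose table was normalised on its own, FBA1 averaged 7473 ± 716 CPM per kilobase in the nmd4 mutant, 7471 ± 568 in the ebs1 mutant, 6885 ± 437 in the labelled double mutant and 8544 ± 1456 in wild type, and the libraries of FBA1, ENO2 and CDC19 overlapped. PFK1 averaged 533 ± 10.5, 519 ± 35.0 and 505 ± 15.9 in those mutants and 626 ± 44.7 in wild type, and overlapped PFK2.

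In the upf1 deletion all 10 mRNAs were lower than in wild type, to between 65.5% of the wild type level for TPI1 and 78.7% for PFK1. All 10 passed the test (edgeR's quasi-likelihood test with Benjamini-Hochberg adjustment over 9700 features), and no library of the upf1 deletion reached the lowest wild type library for any of them. In bulk RNA of this kind, a smaller share of the transcriptome and less mRNA per cell cannot be told apart. The background is high: 31.8% of all features and 44.9% of 5694 coding features tested were lower by the same rule, and among the 570 coding features with the highest mean CPM, the 10 members included, 477 (83.7%) were lower. Libraries of the upf1 deletion lay wholly below wild type for 33.3% of all and 46.7% of coding features, and 37% of all features were higher. The members' median log2 change was -0.44, against -0.14 over coding features, 0.02 over all features and -0.36 over those 570. Read against these, the count of 10 sets the members little apart from other abundant mRNAs.

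The first steps of the pathway rearrange and phosphorylate the sugar. PGI1 encodes phosphoglucose isomerase, which turns glucose 6-phosphate into fructose 6-phosphate, and had 2104, 2252 and 2101 CPM in the upf1 deletion, against 2936, 3057 and 3140.4 CPM in wild type. The groups did not overlap, and the log2 change was -0.50 ± 0.051 (SE; adjusted p = 7.02e-06, edgeR). Phosphofructokinase, the main control point of the path, is an octamer of the PFK1 and PFK2 products. PFK1 had 1066, 1139 and 1125 CPM in the upf1 deletion, against 1356, 1484 and 1391 CPM in wild type. PFK2 had 1527, 1736 and 1550 CPM in the upf1 deletion, against 1938, 2191 and 2026 CPM in wild type. Both subunits fell by about the same amount, with log2 changes of -0.35 ± 0.056 for PFK1 (adjusted p = 0.000233, edgeR) and -0.35 ± 0.066 for PFK2 (adjusted p = 0.000622). Replicate 2 was the highest library of its group for both subunits in both genotypes. The ratio of PFK1 to PFK2 per kilobase was 0.66 ± 0.033 in the upf1 deletion and 0.655 ± 0.011 in wild type (SD, n = 3 each), a difference smaller than the spread.

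FBA1 and TPI1 act where the sugar is cut into triose phosphates. FBA1 had 11596, 11574 and 11701 CPM in the upf1 deletion, against 16928, 15984 and 16114 CPM in wild type, a log2 change of -0.49 ± 0.038 (adjusted p = 7.39e-07, edgeR). TPI1, the triose phosphate isomerase that interconverts the products, had 2032, 2015 and 1996 CPM in the upf1 deletion, against 2999.7, 3053 and 3172 CPM in wild type. The 3 upf1 libraries lay close together and far below the lowest wild type library. TPI1 had the largest fall of the 10, -0.61 ± 0.046 on the log2 scale (adjusted p = 6.2e-07, edgeR), and 3.41% of coding features had a lower log2 change.

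The later steps of glycolysis yield the ATP. PGK1, phosphoglycerate kinase, had 3273, 3417 and 3307 CPM in the upf1 deletion, against 4050.5, 4271 and 4624 CPM in wild type. GPM1 had 6611, 6856 and 6998 CPM in the upf1 deletion, against 9173, 9026 and 9654 CPM in wild type. ENO2, the enolase of glucose-grown cells, had 7627, 8141 and 7859.7 CPM in the upf1 deletion, against 10111, 10006 and 10289 CPM in wild type. For these genes the lowest wild type library stood well above the highest upf1 library. CDC19, the main pyruvate kinase, had 9070.0, 9590.0 and 9487 CPM in the upf1 deletion, against 13078, 12794 and 12135 CPM in wild type. The log2 changes were -0.37 for PGK1, -0.44 for GPM1, -0.36 for ENO2 and -0.43 for CDC19, with SE between 0.041 and 0.055 and adjusted p of at most 0.000113 (edgeR). ADH1, the alcohol dehydrogenase that makes ethanol from acetaldehyde, had 5469, 5575 and 5656 CPM in the upf1 deletion, against 8577, 7924 and 7947 CPM in wild type. Its log2 change, -0.55 ± 0.045 (adjusted p = 1.24e-06, edgeR), was the next largest after that of TPI1.

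**Figure D1:**
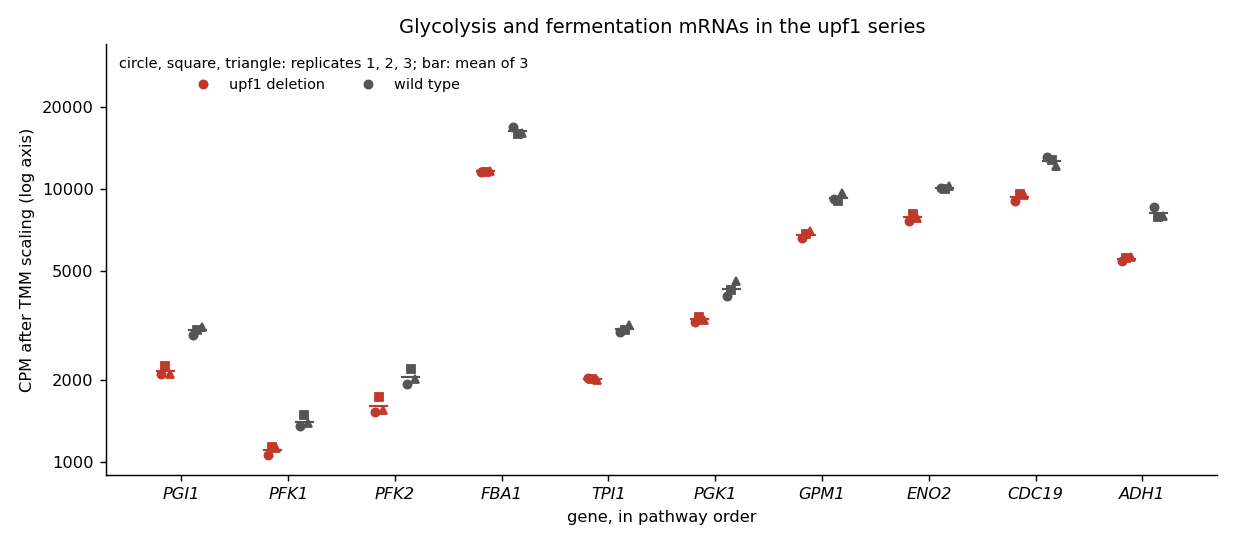
CPM (log axis) of the 10 genes in each library of the upf1 deletion (left of each pair) and its wild type; marker shapes are replicates and bars are means of 3. Every upf1 library lies below every wild type library of the same gene, as for TPI1 with at most 2032 CPM in the upf1 deletion and at least 2999.7 CPM in wild type.

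The size of the fall depends on the scaling. With the scaling factors computed on coding features alone, the median of coding features was -0.00 on the log2 scale in place of -0.14, and 10 of 10 members were still lower, beside 29.3% of coding features, with log2 changes of -0.48 to -0.21 and a median of -0.31. A change of scaling moves all features by nearly the same amount, so the members' place below the median coding feature could not change with it. Library totals alone need no assumption on unchanged features, but take the totals as comparable between genotypes. With them the median was 0.29 over all features and 0.14 over coding features, and the members' median was -0.16. Of coding features 11.9% were lower, and 6 members passed the test as lower (PGI1, FBA1, TPI1, GPM1, CDC19 and ADH1). PFK1, PFK2, PGK1 and ENO2 then had log2 changes of -0.10 to -0.07 with adjusted p of 0.0936 to 0.341 (edgeR). As a plain share of all counts in a library, the 10 genes held 5.50%, 5.75% and 5.74% in the upf1 deletion, against 6.41%, 6.42% and 6.39% in wild type.

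**Figure D2:**
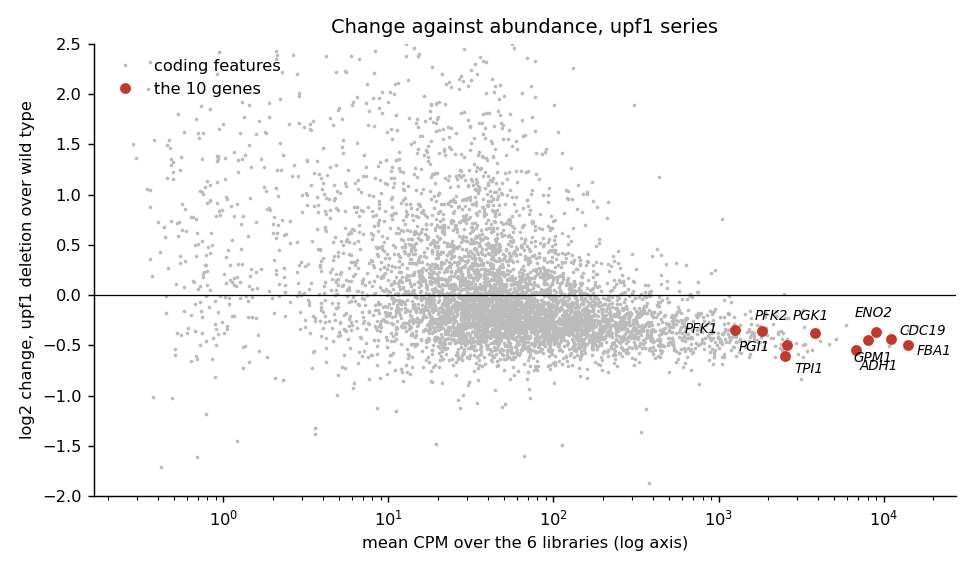
Log2 change in the upf1 deletion over wild type against mean CPM of the 6 libraries (log axis) for 5668 of 5694 coding features (grey, the other 26 lie outside the vertical limits) and the 10 genes (red). The 10 genes sit at the high end of abundance, where most features lie below 0, with changes of -0.61 to -0.35.

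Each member was also set against the mean of the 10 in the same library, which needs no scaling between libraries. Deviations from that mean cancel out over the 10, so values of both signs had to arise. Relative to that mean, the log2 difference between the upf1 deletion and wild type was -0.16 for TPI1 and -0.10 for ADH1, and 0.10 for PFK1 and 0.08 for ENO2. For these 4 genes the libraries of the genotypes did not overlap. No share over other features was computed for this measure. In CPM, 33.3% of all features lay wholly below wild type and 38.6% wholly above. The other 6 had values of -0.05 to 0.09 with overlapping libraries. No test was made of these relative values.

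Every window of 50 bases is unique in the genome for 8 members, against 78.8% of the windows of ENO2 and 87.5% of those of ADH1, whose copies ENO1 and ADH2 are 94.8% and 88.8% identical over their coding bases. Reads with more than 1 alignment were not counted, so that levels of ENO2 and ADH1 may be understated and their changes rest on the unique part. Each member but ADH1 overlaps another feature, and a read was counted for every feature it overlaps on its strand. Across the 5′ ends of 8 members (not PGK1 or ADH1) lie 9 same-strand features of a class of cryptic unstable transcripts that the annotation names CUT_GIM, and 8 of these 9 were tested. All 8 were lower in the upf1 deletion, against 30.1% of 690 CUT_GIM features tested, but they share reads with the members: CUT_GIM_0431 covers 42.1% of FBA1 and CUT_GIM_1279 covers 27.4% of ENO2. One antisense feature moved the other way. SUT140, a stable unannotated transcript opposite the 3′ end of PFK1, averaged 10.6 CPM in the upf1 deletion and 4.04 CPM in wild type, a log2 change of 1.39 (adjusted p = 2.63e-06, edgeR).

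Of 10 further glycolytic genes, 8 were lower and 1 higher in the upf1 deletion, with a median log2 change of -0.21, beside 44.9% of coding features lower and 25.6% higher. The glyceraldehyde 3-phosphate dehydrogenases all fell, with log2 changes of -0.56 for TDH1, -0.39 for TDH2 and -0.31 for TDH3 (largest adjusted p = 3.9e-05, edgeR). ENO1, the enolase isozyme, fell by 0.31 on the log2 scale, GPM3, a mutase homologue, by 0.20, and PYK2, the minor pyruvate kinase, by 0.14. GPM2, the other mutase homologue, had a log2 change of -0.13 (adjusted p = 0.33, edgeR). With scaling on coding features, 4 of the 10 stayed lower (TDH1, TDH2, TDH3 and ENO1) and 1 higher, beside 29.3% and 32.8% of coding features.

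The glucose-phosphorylating enzymes split. HXK2, the hexokinase that dominates in glucose, had 2311, 2326 and 2362 CPM in the upf1 deletion, against 2701, 2745 and 2728 CPM in wild type, and GLK1, glucokinase, had a log2 change of -0.16 (adjusted p = 0.0203, edgeR). HXK1, the hexokinase repressed by glucose, had 610.3, 635 and 599.99 CPM in the upf1 deletion, against 471, 501 and 509 CPM in wild type. It rose by 0.32 ± 0.057 (adjusted p = 0.000473, edgeR), while HXK2 changed by -0.22 ± 0.044 (adjusted p = 0.000942). Under scaling on coding features HXK2 and GLK1 no longer passed, with adjusted p of 0.086 and 0.694, and HXK1 did. A reading frame counted on the same strand, YFR052C-A, overlaps 15.1% of HXK1.

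Between pyruvate and ethanol, 2 of 8 genes were lower and 2 higher in the upf1 deletion. PDC1, the main pyruvate decarboxylase, had 12292, 12927 and 11840.5 CPM in the upf1 deletion, against 15477, 16152 and 15384 CPM in wild type, a log2 change of -0.34 (adjusted p = 3.61e-05, edgeR). Its copy PDC5, which is far less abundant, had 22.9, 24.9 and 21.4 CPM in the upf1 deletion, against 16.0, 21.5 and 17.8 CPM in wild type. PDC5 rose by 0.33 (adjusted p = 0.0178), although its lowest upf1 library lies below the highest of wild type. ADH4, an alcohol dehydrogenase of a separate family, had 122, 131 and 131 CPM in the upf1 deletion, against 59.9, 62.9 and 60.4 CPM in wild type. It rose by 1.07 ± 0.051 on the log2 scale (adjusted p = 1.43e-08, edgeR), with no overlap, and ADH3, the mitochondrial isozyme, changed by -0.17 (adjusted p = 0.0241, but 0.545 with scaling on coding features). ADH2, which takes ethanol back up, and PDC6 had log2 changes of 0.02 and -0.03 and did not pass.

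**Figure D3:**
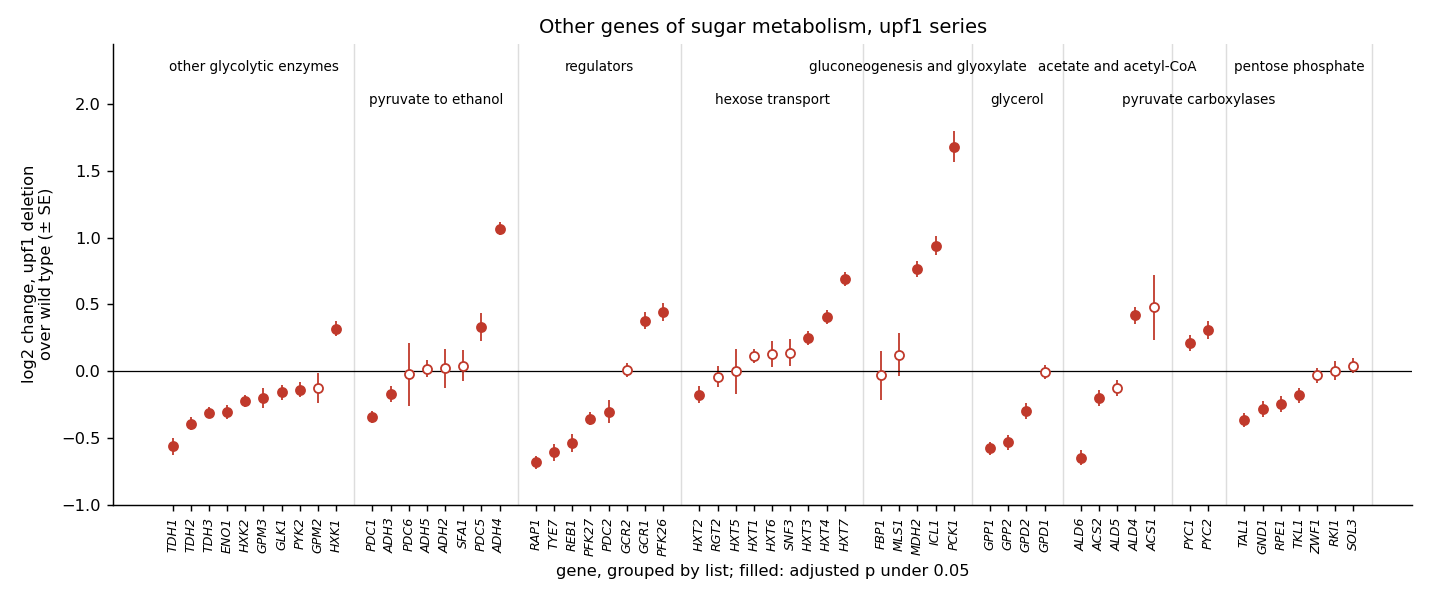
Log2 change in the upf1 deletion over wild type (± SE of the edgeR fit) for 58 other genes of sugar metabolism in 9 lists, ordered within each list; filled symbols passed the test. Of the 58 genes 25 were lower and 14 higher, with PCK1 at 1.68 and ADH4 at 1.07 the highest and RAP1 at -0.68 the lowest.

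Of 8 regulators, 5 were lower and 2 higher, and 4 and 3 with scaling on coding features. For this and the other lists the background is that of coding features, 44.9% lower and 25.6% higher. With scaling on coding features that background was 29.3% lower and 32.8% higher. RAP1, an essential activator of glycolytic and ribosomal protein genes, had 84.1, 86.4 and 87.9 CPM in the upf1 deletion, against 137, 141 and 137 CPM in wild type. TYE7, a helix-loop-helix activator of glycolytic genes, had 110.0, 124 and 117 CPM in the upf1 deletion, against 176, 189 and 171 CPM in wild type. Both groups of libraries were fully apart, with log2 changes of -0.68 ± 0.047 for RAP1 (adjusted p = 2.55e-07, edgeR) and -0.61 ± 0.063 for TYE7 (adjusted p = 7.5e-06). REB1, a general promoter factor, changed by -0.54 (adjusted p = 3.9e-05, edgeR). GCR1, the central activator of the path, went the other way: it had 152, 169 and 162 CPM in the upf1 deletion, against 116, 133 and 124 CPM in wild type, and rose by 0.38 ± 0.065 (adjusted p = 0.000371, edgeR). Its partner GCR2 had a log2 change of 0.01 and did not pass.

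Of 5 genes of gluconeogenesis and the glyoxylate cycle, 3 rose and 0 passed as lower. PCK1, which makes phosphoenolpyruvate for gluconeogenesis, had 12.8, 12.4 and 12.3 CPM in the upf1 deletion, against 4.38, 3.92 and 3.36 CPM in wild type, a log2 change of 1.68 ± 0.12 (adjusted p = 2.86e-07, edgeR). ICL1, isocitrate lyase, rose by 0.94 and MDH2, cytosolic malate dehydrogenase, by 0.77, with no overlap for either. FBP1 and MLS1 had log2 changes of -0.03 and 0.12 and did not pass. Among 9 genes of hexose transport, 3 rose (HXT7 by 0.69, HXT4 by 0.40 and HXT3 by 0.25) and 1 fell (HXT2, -0.18), but with scaling on coding features 6 were higher and 0 lower. Of the 50-base windows of HXT7 10.03% are unique, HXT6 being a near-identical copy, so that its value is uncertain.

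Branches that leave glycolysis gave mixed counts. In glycerol synthesis 3 of 4 genes fell, GPP1 by 0.58, GPP2 by 0.53 and GPD2 by 0.30 on the log2 scale, with adjusted p of at most 0.000926 (edgeR). ALD6, the main enzyme from acetaldehyde to acetate in the cytosol, had 694, 719 and 645 CPM in the upf1 deletion, against 1040.2, 1095 and 1092 CPM in wild type. It fell by 0.65 (adjusted p = 2.51e-06, edgeR), and of its list 2 of 5 genes were lower and 1 higher, the mitochondrial ALD4 at 0.42. With scaling on coding features 1 was lower and 1 higher. The pyruvate carboxylases PYC1 and PYC2 rose by 0.21 and 0.31. Of 7 genes of the pentose phosphate pathway 4 were lower, with TAL1, transaldolase, at -0.37, and with scaling on coding features 2 were lower and 1 higher. Over all 58 genes the median log2 change was -0.03. With scaling on coding features 15 were lower and 19 higher, beside 29.3% and 32.8% of coding features. With library totals alone 7 were lower and 27 higher, beside 11.9% and 44.3% of coding features.

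In the second series the SE of the members' log2 changes were 0.092 to 0.24, against 0.038 to 0.066 in the upf1 series. With the replicate number as a block they were 0.065 to 0.14, against 0.039 to 0.046. Without the block, none passed the test in the nmd4 mutant, the ebs1 mutant or the labelled double mutant against wild type (edgeR, 10148 features tested). The background was low too: 0.00985% of features were lower in the nmd4 mutant, 0.00985% in the ebs1 mutant and 0.384% in the labelled double mutant, and 0.0394%, 0.355% and 2.01% were higher. At an unadjusted p under 0.05, 1 member was called in the nmd4 mutant, 2 in the ebs1 mutant and 3 in the labelled double mutant, beside 5.08%, 12.7% and 14.9% of all features. With the block these counts were 2, 4 and 5 members, beside 1168, 2451 and 2735 of the 10148 features (edgeR). DESeq2 called 0, 1 and 2 members as lower after adjustment, beside 0.00985%, 0.69% and 1.3% of features. The log2 changes ran from -0.23 to 0.06 in the nmd4 mutant, from -0.27 to 0.13 in the ebs1 mutant and from -0.32 to 0.08 in the labelled double mutant. Of 10 members, 8, 8 and 9 had a negative estimate in these 3 comparisons, which share the same wild type libraries. No share of negative estimates over all features was computed. The members' median log2 changes were -0.10, -0.15 and -0.18, against -0.11, -0.19 and -0.19 over the 571 coding features with the highest mean CPM. Over all features the medians were -0.004, 0.0006 and -0.009. By these medians the members were set little apart from other abundant mRNAs.

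The phosphofructokinase subunits were the only members that passed in any of these comparisons under DESeq2 or a replicate block. PFK1 had 1831, 1819.7 and 1887 CPM in the nmd4 mutant, 1717, 1939 and 1743 CPM in the ebs1 mutant and 1746, 1807 and 1697 CPM in the labelled double mutant, against 1998, 2209 and 2299.6 CPM in wild type. Every mutant library lay below the lowest wild type library. PFK2 had 1697, 1736 and 1969 CPM in the nmd4 mutant, 1625, 1756 and 1725 CPM in the ebs1 mutant and 1597, 1699.6 and 1627 CPM in the labelled double mutant, against 1921, 1931 and 2309.8 CPM in wild type. Here replicate 3 of the nmd4 mutant overlapped wild type and the others did not. The log2 change of PFK1 was -0.23 ± 0.092 in the nmd4 mutant, -0.27 ± 0.092 in the ebs1 mutant and -0.31 ± 0.092 in the labelled double mutant (adjusted p = 0.95, 0.258 and 0.123, edgeR). For PFK2 it was -0.19, -0.27 and -0.32 in the same order (adjusted p = 0.999, 0.303 and 0.153).

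With the replicate number as a block, which the labels support, PFK1 and PFK2 passed as lower in the labelled double mutant (adjusted p = 0.0277 and 0.0297, edgeR), where 3.63% of all features were lower, and no member passed in the nmd4 mutant (lowest adjusted p = 0.309) or the ebs1 mutant (lowest 0.056), where 0.00985% and 2.4% of features were lower. With the block and scaling on coding features together the adjusted p in the labelled double mutant were 0.0551 for PFK1 and 0.0531 for PFK2 (edgeR), beside 1.62% of features lower. Counted by libraries, those of 1 member in the nmd4 mutant, 3 in the ebs1 mutant and 4 in the labelled double mutant lay wholly below wild type, against 3.18%, 5.94% and 7.35% of all features in the same comparisons. They were PFK1 in the nmd4 mutant, PGI1, PFK1 and PFK2 in the ebs1 mutant, and PGI1, PFK1, PFK2 and FBA1 in the labelled double mutant.

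**Figure D4:**
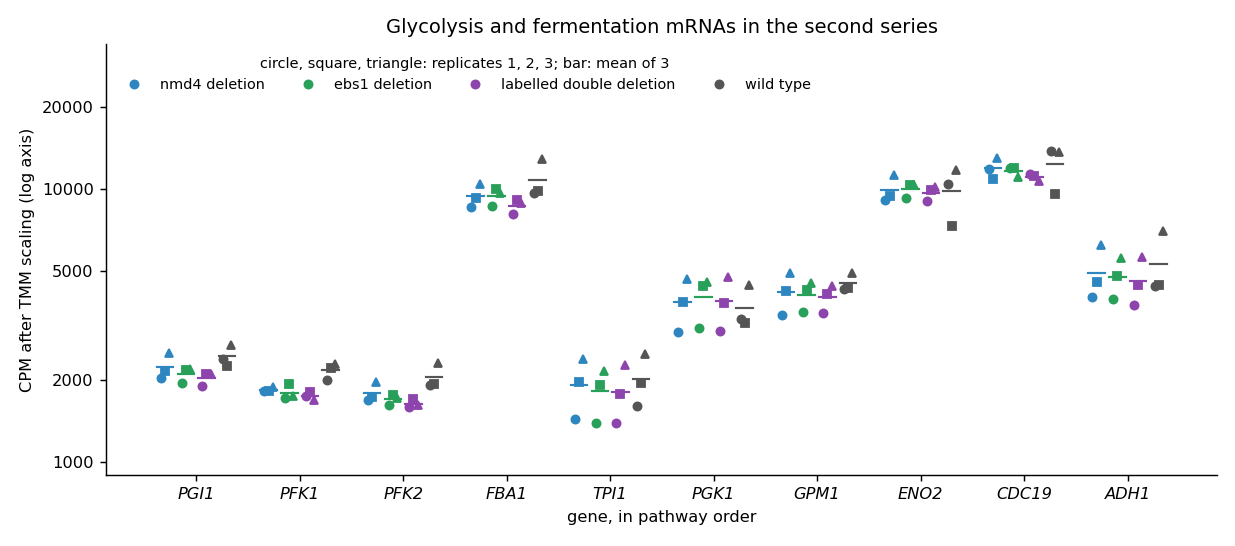
CPM (log axis) of the 10 genes in each library of the nmd4, ebs1 and labelled double mutants and, rightmost in each set, their wild type; marker shapes are replicates and bars are means of 3. Replicates spread widely for TPI1, PGK1, GPM1 and ADH1, and wild type replicate 2 lies low for ENO2 at 7321 CPM and CDC19 at 9564 CPM.

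For TPI1 and ADH1 the replicates of a group lay further apart than the genotypes. TPI1 had 1435, 1961 and 2382 CPM in the nmd4 mutant, 1391, 1912 and 2162 CPM in the ebs1 mutant and 1397, 1783 and 2263 CPM in the labelled double mutant, against 1603, 1953 and 2492 CPM in wild type. In all 4 groups replicate 3 was the highest, 1.55 to 1.66 times replicate 1. ADH1 had 4038, 4557 and 6220.5 CPM in the nmd4 mutant, 3951, 4808 and 5577 CPM in the ebs1 mutant and 3770.2, 4476 and 5641 CPM in the labelled double mutant, against 4424, 4449 and 7053 CPM in wild type. Here too replicate 3 was the highest of each group. It was the highest library for 10 members in the nmd4 mutant, 6 in the ebs1 mutant, 5 in the labelled double mutant and 9 in wild type. Comparing same-numbered libraries, 4 members were lower than wild type in all 3 pairs in the nmd4 mutant, 5 in the ebs1 mutant and 6 in the labelled double mutant, beside 15.2%, 19.1% and 20.1% of all features. In the upf1 deletion 10 members were, beside 39.5% of all features.

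For the enolase and the pyruvate kinase 1 wild type library stood apart. ENO2 had 9101, 9407 and 11283 CPM in the nmd4 mutant, 9261, 10323 and 10346 CPM in the ebs1 mutant and 9014, 9929 and 10151 CPM in the labelled double mutant, against 10419.9, 7321 and 11722 CPM in wild type. CDC19 had 11849.5, 10922 and 12981 CPM in the nmd4 mutant, 11957, 11999.8 and 11119 CPM in the ebs1 mutant and 11388, 11144 and 10682 CPM in the labelled double mutant, against 13789.7, 9564 and 13642 CPM in wild type. For both, wild type replicate 2 was the lowest of the 12 libraries. PGK1, with 2999.8, 3867 and 4674 CPM in the nmd4 mutant, 3111, 4432 and 4563 CPM in the ebs1 mutant and 3036, 3846 and 4779 CPM in the labelled double mutant, against 3356, 3239 and 4465 CPM in wild type, had the only positive estimate in all 3 comparisons (0.06, 0.13 and 0.08). The signs of ENO2, CDC19, PGK1, TPI1, ADH1 and GPM1 in at least one of these comparisons turned when a single library was left out. These fits have no replicate block, so leaving out a library unbalances the replicates between groups. Within same-numbered pairs TPI1 was lower in 3 of 3 in the ebs1 and labelled double mutants. ENO2, CDC19, PGK1 and ADH1 were lower in 1 or 2 of 3 pairs in each mutant.

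PGI1, FBA1 and GPM1 had negative estimates in all 3 mutants, and none passed. PGI1 had 2032, 2159 and 2519 CPM in the nmd4 mutant, 1955, 2177 and 2195 CPM in the ebs1 mutant and 1899, 2104 and 2099 CPM in the labelled double mutant, against 2387, 2248 and 2693 CPM in wild type. FBA1 had 8626, 9313 and 10422 CPM in the nmd4 mutant, 8646, 10028 and 9679 CPM in the ebs1 mutant and 8082, 9129 and 8916 CPM in the labelled double mutant, against 9669, 9823 and 12932 CPM in wild type, with replicate 3 of wild type standing above the other 11 libraries. GPM1 had 3461, 4240.3 and 4950.2 CPM in the nmd4 mutant, 3540.5, 4259 and 4522 CPM in the ebs1 mutant and 3517, 4123 and 4432 CPM in the labelled double mutant, against 4310.2, 4335 and 4918 CPM in wild type. The 10 genes held 4.82% to 5.70% of all counts in the nmd4 mutant, 4.95% to 5.54% in the ebs1 mutant and 4.80% to 5.41% in the labelled double mutant, against 4.56% to 5.68% in wild type, so these shares overlapped. No member differed between the labelled double mutant and either single deletion (edgeR; 0 members also at an unadjusted p under 0.05, beside 1.8% of features against ebs1 and 6.51% against nmd4), where 0.266% of features were lower against each and 0.148% and 0.286% higher than in the ebs1 and nmd4 mutants.

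Among the 58 other genes of sugar metabolism, none passed in the nmd4 or ebs1 mutant and 1 fell in the labelled double mutant (edgeR). GPD2, which commits dihydroxyacetone phosphate to glycerol, had 218, 229 and 207 CPM in the labelled double mutant, against 261, 308 and 401 CPM in wild type, a log2 change of -0.57 ± 0.13 (adjusted p = 0.0473, and 0.0796 with scaling on coding features). With the replicate block 8 genes were lower in the labelled double mutant (GPD2, GPP1, HXT2, RGT2, TDH2, PDC6, TYE7 and REB1) and 3 in the ebs1 mutant (GPD2, TYE7 and REB1), with none higher, and none passed in the nmd4 mutant. Of coding features, 5.68% were lower with the block in the labelled double mutant and 3.89% in the ebs1 mutant. TYE7 had log2 changes of -0.25 in the nmd4 mutant, -0.47 in the ebs1 mutant and -0.47 in the labelled double mutant, with adjusted p of 0.298, 0.0122 and 0.00451 under the block (edgeR).

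**Figure D5:**
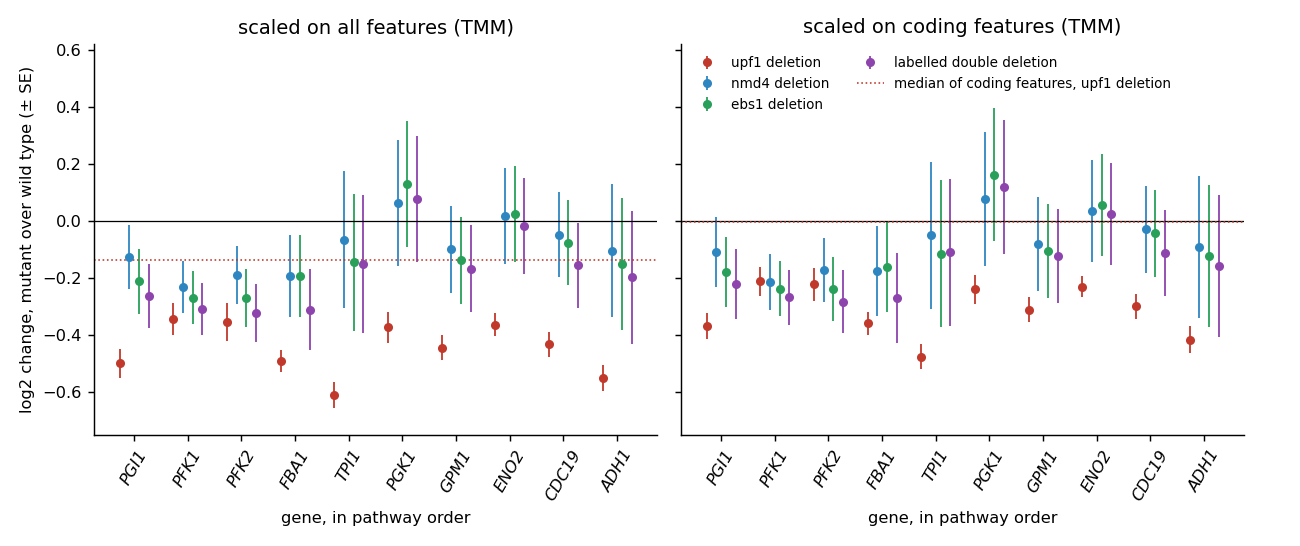
Log2 change of the 10 genes in each mutant over its own wild type (± SE of the edgeR fit), with scaling on all features (left) and on coding features (right); the dotted line is the median of coding features in the upf1 deletion, -0.14 at left and -0.00 at right. The upf1 values run from -0.61 to -0.35 at left and from -0.48 to -0.21 at right with short error bars, and those of the other mutants from -0.32 to 0.13 at left with longer ones.

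A fit of all 18 libraries set the upf1 effect against each other effect, each taken within its own series. The upf1 effect minus the nmd4 effect was called for 1 member, PGI1, at -0.37 ± 0.12 on the log2 scale (adjusted p = 0.0366, edgeR), where 5.42% of 10381 features were called lower. PGI1 was not called in 6 of the 12 fits with 1 library left out. Among these were the fits without upf1 replicate 3, nmd4 replicate 3, replicate 2 or 3 of the upf1-series wild type or replicate 2 of the second wild type. The count of members was 6 without nmd4 replicate 1 and 4 without replicate 3 of the second wild type. None passed against the ebs1 mutant or the labelled double mutant, where 2.97% and 2.54% of features were called lower. At an unadjusted p under 0.05 there were 2, 4 and 0 members against the nmd4, ebs1 and labelled double effects, where 38.5%, 32.3% and 31.7% of all features were. The differences of the members ran from -0.54 to -0.11 against nmd4, from -0.53 to -0.10 against ebs1 and from -0.48 to -0.06 against the labelled double mutant. These comparisons share the upf1 and both wild type groups. TPI1 had differences of -0.54, -0.49 and -0.48, with SE of 0.28.

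With the replicate block, 7, 6 and 5 members had a more negative upf1 effect than the nmd4, ebs1 and labelled double effects, where 16.3%, 12.3% and 11.7% of features did. Of coding features 24.2%, 18.4% and 16.9% did, and no share over the most abundant features was computed for these differences. Against nmd4 the members called were PGI1, FBA1, TPI1, PGK1, GPM1, CDC19 and ADH1, against ebs1 the same without CDC19, and against the labelled double mutant PGI1, TPI1, PGK1, GPM1 and ADH1. For TPI1 the differences were -0.53, -0.48 and -0.48 (adjusted p = 0.0002, 0.000589 and 0.000666, edgeR). With the block and scaling on coding features together, 4, 3 and 3 members were called, beside 10.5%, 7.75% and 8.04% of features lower: PGI1, TPI1, PGK1 and ADH1 against nmd4, and TPI1, PGK1 and ADH1 against ebs1 and against the labelled double mutant. PFK1 and PFK2 had differences of -0.16 to -0.06 with the block, and of -0.08 to 0.0067 with the block and scaling on coding features, and were not called in either. DESeq2 called 8, 6 and 3 members, beside 18.8%, 13.1% and 11.5% of features lower and 30%, 21.3% and 18% of coding features. Scaling on coding features without the block called 0 in each, beside 3.44%, 1.92% and 1.89%, so the number of differences past the threshold rests on the fit.

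Members aside, the 5 coding genes whose 4 changes lay nearest the median changes of the members, among 1326 candidates with a mean of at least 100 CPM, were YSP2, EMP70, NAN1, GCD2 and MKC7, with root mean square differences of 0.010 to 0.019 over the 4 comparisons. YSP2 encodes a sterol transfer protein, EMP70 an endosomal membrane protein, NAN1 a ribosome assembly factor, GCD2 a subunit of the exchange factor of translation initiation factor 2, and MKC7 a cell-surface protease. In the upf1 deletion they changed by -0.46 to -0.43 and in the other mutants by -0.20 to -0.09. None of the 5 is an enzyme of sugar metabolism.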

How the data were processed

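RNA extracted with hot phenol and treated with DNaseI was depleted of ribosomal RNA and made into stranded libraries, per the labels' protocols. The authors deposited raw counts per feature in one table for each series. Per the file headers, reads were counted by featureCounts (Subread 1.5.0-p3) on the sense strand, with a read assigned to every feature it overlaps and reads with several alignments left out. STAR 2.4.2a and the R64 genome come from the submitters' processing notes.

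Groups were taken from the labels. Counts were tested with edgeR 4.0.16 (quasi-likelihood, filterByExpr, TMM, R 4.3.3) on 6 libraries for upf1, on 12 for the second series and on 18 for the differences between effects, with Benjamini-Hochberg adjustment over all features tested and a threshold of 0.05. The alternatives were scaling on coding features, RLE scaling, library totals alone, DESeq2 1.42.0, no filter, a replicate block and leaving out each library. A block together with scaling on coding features was added after seeing the data. The replicate number pairs libraries by the labels, which say that same-numbered samples were handled in parallel. The deviations of same-numbered libraries from their group means had a median correlation of 0.74 (-0.00 to 0.90) over 4458 features in the second series and 0.27 (0.099 to 0.50) over 4411 in the upf1 series. The main fits have no block, and the blocked values are given where they differ. On simulated counts the fits recovered 86.7% of genes changed by 0.5 on the log2 scale in the upf1 design and 19% in the nmd4 design, and 99% and 81% of those changed by 1, over 9581 and 10060 features. Of the calls, 3.16% and 8.26% fell on unchanged features. The simulated counts had few changed features, evenly up and down, and no replicate structure, so recovery in the real data may differ.

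The genes named are the 10 members, the members of the wider lists and the 5 genes of nearest pattern. Members, lists and tests were chosen with earlier results of these data known. CPM is the count per 1000000 of the TMM-scaled library. Motifs were searched on both strands with Python 3.11.15 in the RefSeq genome of build R64.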

Additional observations from a re-analysis of the deposited data

Results flagged for a closer look

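The change of PGI1 in the upf1 deletion differed from its change in the nmd4 mutant by a test of the difference itself, with -0.37 ± 0.12 on the log2 scale (adjusted p = 0.0366, edgeR, 18 libraries). PGI1 had log2 changes of -0.50 in the upf1 deletion and -0.13 in the nmd4 mutant, each against the wild type of its own series, and was lower than wild type in 3 of 3 same-numbered pairs in both. The difference was not called with scaling on coding features or library totals alone, nor in 6 of the 12 fits with 1 library left out. Among these were the fits without upf1 replicate 3, nmd4 replicate 3, replicate 2 or 3 of the upf1-series wild type or replicate 2 of the second wild type.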

How the results depend on the processing

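All 10 members stayed lower in the upf1 deletion under every alternative run except library totals alone, which called 6, and leaving out any 1 library kept the count at 10. The replicate block changed no call of a member in the upf1 deletion, and 26 of the wider genes were lower with it, against 25 without. In the second series DESeq2 called 1 member in the ebs1 mutant and 2 in the labelled double mutant, and the replicate block called 2 in the labelled double mutant. For the upf1 effect minus the nmd4 effect, the count of 1 became 0 with scaling on coding features and with library totals, 3 with no filter, 4 with the replicate block and coding scaling, 5 with RLE, 7 with the replicate block and 8 with DESeq2, and ran from 0 to 6 with 1 library left out. Beside these, 1443 of 12080 features were lower with no filter and 1812 of 10381 with RLE. The median difference over all features was -0.12 with no filter, -0.15 with RLE and -0.16 with DESeq2, against 0.01 in the main fit. Against the ebs1 effect, the count of 0 became 1 with no filter, 3 with block and coding scaling, 4 with RLE and 6 with DESeq2 or the replicate block, and ran from 0 to 2 with 1 library left out (2 without second-series wild type replicate 3 or ebs1 replicate 1, 1 without second-series wild type replicate 1). Beside these, 752 of 12080 features were lower with no filter and 1150 of 10381 with RLE. Against the labelled double effect the count of 0 became 1 with RLE, where 972 of 10381 features were lower. It became 3 with DESeq2 or with block and coding scaling and 5 with the replicate block, and was 0 with any library left out. Against both of these effects the all-feature medians were -0.13 to -0.09 with no filter, RLE and DESeq2, against 0.01 in the main fit. Of the 58 wider genes, 15 were lower in the upf1 deletion with scaling on coding features, beside 29.3% of coding features. With library totals 7 were lower and 27 higher, beside 11.9% and 44.3% of coding features. In the ebs1 mutant the lower count was 1 with DESeq2 and 3 with the replicate block, and in the labelled double mutant 8 with the block and 0 with scaling on coding features, library totals or no filter.

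Signs turned for values that had not passed. With library totals alone, the log2 change became 0.0265 for TPI1 and 0.0438 for CDC19 in the nmd4 mutant, 0.0017 for TPI1, 0.004 for GPM1, 0.0684 for CDC19 and 0.0014 for ADH1 in the ebs1 mutant, and 0.004 for TPI1 and 0.14 for ENO2 in the labelled double mutant. The differences between effects became 0.0696, 0.0569 and 0.088 for PFK1 and 0.0165, 0.0457 and 0.0902 for PFK2 against nmd4, ebs1 and the labelled double mutant. With scaling on coding features ENO2 became 0.0241 in the labelled double mutant, and the differences against it became 0.0082 for PFK1 and 0.0131 for PFK2. With the block as well, these were 0.038, 0.0059 and 0.0067. The fits with 1 library left out had no replicate block. In them, log2 changes in the nmd4 mutant ran from -0.24 to 0.13 for TPI1, from -0.10 to 0.24 for PGK1, from -0.23 to 0.0236 for GPM1, from -0.16 to 0.18 for ENO2, from -0.20 to 0.0423 for CDC19 and from -0.30 to 0.17 for ADH1. In the ebs1 mutant they ran from -0.29 to 0.0443 for TPI1, from -0.15 to 0.18 for ENO2, from -0.23 to 0.0125 for CDC19 and from -0.28 to 0.12 for ADH1. In the labelled double mutant they ran from -0.34 to 0.0382 for TPI1, from -0.10 to 0.25 for PGK1, from -0.18 to 0.14 for ENO2 and from -0.36 to 0.0702 for ADH1. The difference of PFK2 against the labelled double mutant ran from -0.16 to 0.0024. The causes were not tested. The spread between libraries was large beside the changes of the members in the second series. There an SE of up to 0.24 without the replicate block, and up to 0.14 with it, leaves small changes undetectable.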

Other observations

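Ratios between isozymes within a library, taken per length, need no scaling between libraries. HXK2 over HXK1 was 3.58 ± 0.13 in the upf1 deletion and 5.21 ± 0.18 in wild type (SD, n = 3 each), PDC1 over PDC5 was 618 ± 20.5 in the upf1 deletion and 993 ± 124 in wild type, and CDC19 over PYK2 was 165 ± 5.71 in the upf1 deletion and 202 ± 6.45 in wild type. The libraries did not overlap in any of these 3 ratios, all lower in the upf1 deletion. ADH1 over ADH2, GPM1 over GPM2 and GPM1 over GPM3 were also lower without overlap. They averaged 1981, 457.9 and 210.3 in the upf1 deletion, against 2922, 569 and 249.2 in wild type. ENO2 over ENO1 was 5.11 ± 0.27 in the upf1 deletion and 5.31 ± 0.13 in wild type, and these libraries overlapped. The TDH ratios went the other way, without overlap. TDH3 over TDH2 was 8.64, 8.55 and 8.34 in the upf1 deletion, against 8.28, 8.11 and 7.72 in wild type. TDH3 over TDH1 was 20.3, 20.97 and 18.7 in the upf1 deletion, against 17.9, 17.05 and 15.5 in wild type. No test of these ratios was made, and no share over other gene pairs was computed.

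In the second series some of these ratios spread widely between replicates of 1 group. TDH3 over TDH1 was 335, 321 and 76.2 in the nmd4 mutant, 399, 371 and 68.8 in the ebs1 mutant and 327, 425 and 70.2 in the labelled double mutant, against 299, 82.6 and 84.5 in wild type. Replicate 3 was low in each mutant, and replicates 2 and 3 were low in wild type. HXK2 over HXK1 was 29.1, 43.1 and 20.3 in the nmd4 mutant, 28.5, 49.2 and 13.4 in the ebs1 mutant and 35.6, 50.4 and 16.0 in the labelled double mutant, against 31.9, 23.4 and 110 in wild type. Here wild type replicate 3 stood highest of the 12 libraries, whereas replicate 3 was the lowest of each mutant group. PFK1 over PFK2, by contrast, stayed between 0.912 and 1.09 in all 12 libraries.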
